A study of Mus musculus with 2 samples.

Results

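The 9 genes described here encode enzymes of the tricarboxylic acid cycle: Cs, Idh2, Idh3a, Idh3g, Ogdh, Suclg1, Suclg2, Fh1 and Mdh2. They were taken by name, not by their values, from the 45706 gene IDs of the count files, and all 9 were among the 12026 genes counted deeply enough to be called measured. RNA sequencing was done on mouse intestinal stem cells, with 1 library from fasted mice and 1 library from mice fed standard chow ad libitum. Both came from the strain Lgr5-EGFP-IRES-creERT2, at an age of 4 months, and from cells sorted for high GFP, a fluorescent protein that the Lgr5 locus drives. How long the mice fasted, and how many were pooled in a library, is not stated in the labels. Single libraries leave no replicate spread to test against, so each difference below describes these 2 libraries and no p-value is given.

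The cycle runs in the mitochondrial matrix. It condenses acetyl-CoA, the product of pyruvate and fatty acid breakdown, with oxaloacetate, releases the carbon as carbon dioxide and passes the electrons to the respiratory chain. Its intermediates also leave for the synthesis of lipids, amino acids and glucose. In intestinal stem cells the use of mitochondrial fuel is known to bear on self-renewal and differentiation.

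The fasted library held 5020056 counts over 17067 genes and the fed library 6985316 counts over 17970 genes, and the counting error given below follows from these depths. Counts are given per 1000000 counts of the library (CPM). Each ratio is fasted over fed after scaling by median-of-ratios size factors (0.842 for the fasted and 1.19 for the fed library), with an exact 95% interval that covers counting error only. A gene is called higher or lower when it differs at least 2-fold and its interval excludes a ratio of 1. Transcripts that define the sorted cells were abundant in both libraries: Olfm4 had 41452 counts in the fasted and 100399 in the fed library, and Lgr5 had 1709 and 3381. After scaling both were lower in the fasted library, within 2-fold, with log2 ratios of -0.78 (-0.79 to -0.76) for Olfm4 and -0.49 (-0.57 to -0.40) for Lgr5.

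The cycle enzyme genes had nearly the same levels in fasted and fed stem cells. None of the 9 was called higher or lower, where 2.51% of all measured genes were called higher and 1.91% lower. At a threshold of 1.5-fold the count was also 0 of 9, against 5.11% of measured genes higher and 5.05% lower. Of the 2117 measured genes with a mean CPM in the range of the 9, 4.77% were that far apart in either direction. The count of 0 of 9 is near that share. The ratios ran from 0.937-fold for Ogdh to 1.26-fold for Suclg2, and their median was 1.10-fold, a log2 ratio of 0.14. The counting intervals of the 9 reached no further than log2 ratios of -0.19 and 0.50. The median log2 ratio over all measured genes was -0.018. In these bulk samples, fewer cells of a type and less RNA per cell cannot be told apart.

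Small as they were, most ratios lay on the same side of 1. A positive log2 ratio was found for 8 of the 9 genes and for 47.9% of all measured genes. The counting interval lay above a ratio of 1 for 5 of the 9 and for 16.7% of measured genes, and below it for 1 of the 9 (Ogdh) and for 19.2%. These shares depend on depth. Among the 2117 measured genes whose mean CPM fell in the range of the 9, from 107 to 448, 26.5% had an interval above 1 and 29.9% one below it. The log2 ratios of those 2117 genes had a median of -0.018 and a robust SD of 0.22, with a 5th percentile of -0.40 and a 95th of 0.46. Each of the 9 genes fell between these percentiles. How much of that spread would also appear between 2 libraries of the same group is unknown.

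Summed over the 9 genes, 13461 counts were found in the fasted library and 17380 in the fed library. That sum was 0.268% (exact 95% Poisson interval 0.264 to 0.273) of all counts in the fasted and 0.249% (0.245 to 0.253) in the fed library. The log2 ratio of the sums was 0.13 (0.097 to 0.16), or 1.09-fold.

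**Figure D1:**
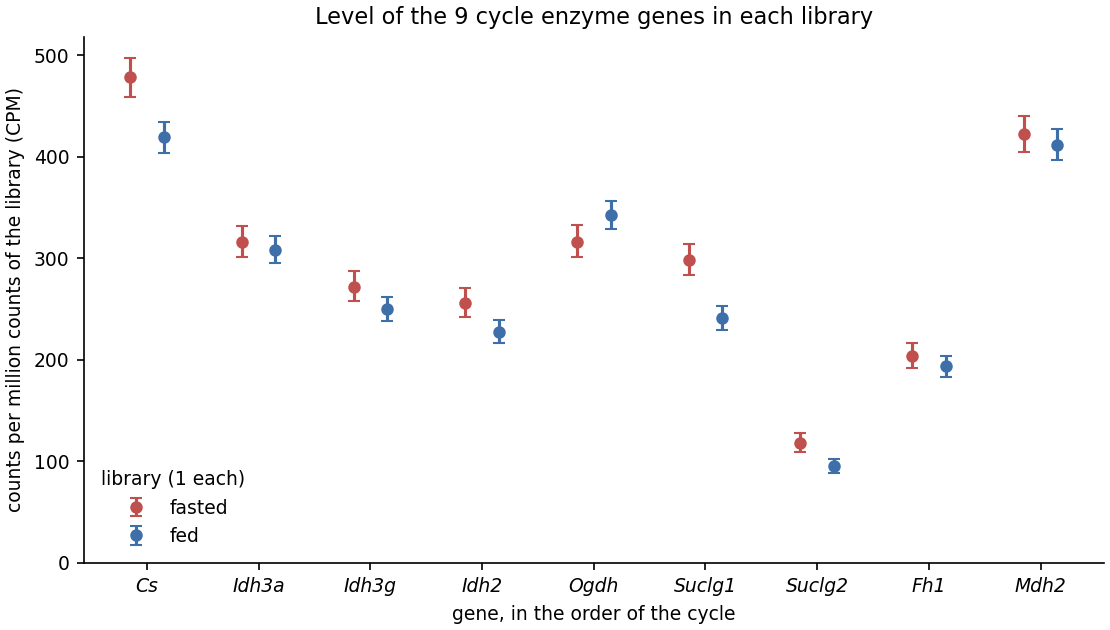
Level in CPM (vertical axis) of the 9 cycle enzyme genes, in the order of the cycle (horizontal axis), in the fasted and the fed library. Points are single libraries and bars are exact 95% Poisson intervals for counting error. The intervals of Cs, Idh2, Suclg1 and Suclg2 do not overlap between the libraries, and Ogdh is the gene with the lower point in the fasted library.

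Promoter windows of 4 genes are printed from RefSeq (build GRCm38.p6), each with 250 bases before and 50 after a start site. Suclg1 and Suclg2 are shown because these partner subunits had the same ratio, Ogdh because it was the member with a ratio below 1, and Idh3g because it held the match to YY1. Of 6 windows for Ogdh, the printed window was picked from the 2 that held a match to NRF1. It lies inside the gene, whose annotated start is 6291633. Capitals mark matches to the motifs searched on both strands.
Suclg1, chr6:73248255-73248554, plus strand: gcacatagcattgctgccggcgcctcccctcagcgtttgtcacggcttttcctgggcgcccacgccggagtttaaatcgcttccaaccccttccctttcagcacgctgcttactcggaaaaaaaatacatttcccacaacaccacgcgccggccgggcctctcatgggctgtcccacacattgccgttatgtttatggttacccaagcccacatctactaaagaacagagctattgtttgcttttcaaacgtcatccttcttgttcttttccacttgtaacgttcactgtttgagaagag
Suclg2, chr6:95718797-95719096, minus strand: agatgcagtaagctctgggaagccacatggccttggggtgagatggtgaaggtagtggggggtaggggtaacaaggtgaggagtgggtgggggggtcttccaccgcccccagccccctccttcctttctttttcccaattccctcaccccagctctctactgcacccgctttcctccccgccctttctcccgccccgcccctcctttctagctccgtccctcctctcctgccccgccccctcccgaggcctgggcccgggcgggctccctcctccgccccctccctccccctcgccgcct
Idh3g, chrX:73786848-73787147, minus strand: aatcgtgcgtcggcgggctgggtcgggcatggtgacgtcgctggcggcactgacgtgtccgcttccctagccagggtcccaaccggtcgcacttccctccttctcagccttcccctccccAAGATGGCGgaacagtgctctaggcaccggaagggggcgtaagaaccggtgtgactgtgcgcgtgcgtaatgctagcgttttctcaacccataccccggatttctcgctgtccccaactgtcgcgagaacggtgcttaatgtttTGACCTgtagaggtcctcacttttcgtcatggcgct
Ogdh, chr11:6292308-6292607, plus strand: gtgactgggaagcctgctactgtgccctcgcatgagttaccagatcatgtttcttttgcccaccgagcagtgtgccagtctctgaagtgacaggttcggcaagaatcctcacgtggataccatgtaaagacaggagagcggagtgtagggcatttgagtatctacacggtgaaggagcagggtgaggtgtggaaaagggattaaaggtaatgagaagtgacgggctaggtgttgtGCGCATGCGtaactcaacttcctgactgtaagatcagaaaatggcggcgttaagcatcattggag

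The motifs were those of the factors NRF1 (GCGCATGCG), YY1 (AAGATGGCG) and the ETS family (CCGGAAGT), the estrogen-related receptor element (TCAAGGTCA), the nuclear receptor half-site (AGGTCA, which the receptor element contains) and the direct repeat 1, which holds 2 half-sites 1 base apart. Windows were found for 8 of the 9 genes, with 6 start sites for Ogdh and none printed for Idh3a. NRF1 matched in Ogdh alone, in 2 overlapping windows, against 1.75% of all 32851 windows. YY1 matched in Idh3g alone, against 1.40%. The half-site matched in Fh1, Idh3g and Ogdh, against 16.3% of all windows, and the Ogdh match lay in another of its windows. These shares count single windows, whereas a gene was counted when any of its windows matched. With 6 windows Ogdh was more likely to be counted, so genes and shares are not directly comparable. The ETS motif (3.89% of all windows), the receptor element (0.423%) and the direct repeat (0.0396%) matched in 0 of the 8 genes. The Suclg1 and Suclg2 windows held no match to any of the 6 motifs, and neither did those of Cs, Idh2 and Mdh2.

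Step 1, the condensation of acetyl-CoA with oxaloacetate, is catalysed by citrate synthase, the product of Cs (chromosome 10, 128337734 to 128362479, GRCm38). Cs had 2400 counts (478 CPM) in the fasted and 2926 counts (419 CPM) in the fed library. The log2 ratio was 0.21 (0.13 to 0.29), or 1.16-fold, so the 2 libraries lay further apart than counting error. Of the genes measured, 23.3% had a larger ratio than Cs.

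Step 3, the oxidation of isocitrate, has 2 mitochondrial enzymes. The first uses NAD and is built from a catalytic alpha subunit (Idh3a, chromosome 9, 54586334 to 54604661), a beta subunit (Idh3b) and a gamma subunit (Idh3g, chromosome X, 73778963 to 73786897). Idh3a had 1587 counts (316 CPM) in the fasted and 2153 (308 CPM) in the fed library, a log2 ratio of 0.058 (-0.037 to 0.15). Idh3g had 1366 counts (272 CPM) in the fasted and 1746 (250 CPM) in the fed library, a log2 ratio of 0.14 (0.041 to 0.25). Idh3b had a log2 ratio of 0.070 (-0.014 to 0.15). The balance between the alpha and gamma subunits did not move beyond counting error: there were 1.16 Idh3a counts per Idh3g count in the fasted and 1.23 in the fed library, a log2 odds ratio of -0.086 (-0.23 to 0.054).

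The other enzyme of step 3 is the NADP-dependent isocitrate dehydrogenase of mitochondria, the product of Idh2 (chromosome 7, 80094846 to 80115392), which makes NADPH. Idh2 had 1285 counts (256 CPM) in the fasted and 1588 (227 CPM) in the fed library. Its log2 ratio of 0.19 (0.085 to 0.30), or 1.14-fold, lay outside counting error. Against Idh3a, however, the log2 odds ratio was 0.13 (-0.0087 to 0.28), an interval that held 0, so a shift between the NADP and NAD enzymes was not detectable at this depth.

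Step 4 is catalysed by the oxoglutarate dehydrogenase complex, whose first component is encoded by Ogdh (chromosome 11, 6291633 to 6356642). Ogdh had 1588 counts (316 CPM) in the fasted and 2393 (343 CPM) in the fed library. Its log2 ratio of -0.094 (-0.19 to -0.0016), or 0.937-fold, was the one negative value among the 9, and the interval barely left out a ratio of 1. The other components did not share that direction. Dlst, which encodes the succinyltransferase core, had 0.10 (-0.010 to 0.21). Dld, which encodes a dehydrogenase also used by the pyruvate dehydrogenase complex, had 0.24 (0.14 to 0.35). There were 1.17 Ogdh counts per Dld count in the fasted and 1.48 in the fed library, a log2 odds ratio of -0.34 (-0.48 to -0.19). Against Dlst the counts were 1.40 and 1.61 to 1, with a log2 odds ratio of -0.20 (-0.34 to -0.050).

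Step 5, the conversion of succinyl-CoA to succinate, gave the largest ratios of the 9 genes. Succinate-CoA ligase joins an alpha subunit (Suclg1, chromosome 6, 73248382 to 73276911) with a beta subunit that makes either GTP (Suclg2, chromosome 6, 95473009 to 95718800) or ATP (Sucla2). Suclg1 had 1499 counts (299 CPM) in the fasted and 1682 (241 CPM) in the fed library, a log2 ratio of 0.33 (0.23 to 0.43), or 1.26-fold. Suclg2 had 594 counts (118 CPM) in the fasted and 665 (95.2 CPM) in the fed library, a log2 ratio of 0.33 (0.17 to 0.50), or 1.26-fold. About 15.1% and 14.9% of the measured genes had a larger ratio than Suclg1 and Suclg2.

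The ATP-forming subunit gene did not move with them. Sucla2 had 160 CPM in the fasted and 159 CPM in the fed library, a log2 ratio of 0.024 (-0.11 to 0.16). Suclg2 had 0.741 counts per Sucla2 count in the fasted and 0.597 in the fed library, a log2 odds ratio of 0.31 (0.10 to 0.52). Suclg1 against Sucla2 gave 0.31 (0.14 to 0.48), while Suclg1 against Suclg2 gave -0.0033 (-0.19 to 0.19), with 2.52 counts to 1 in the fasted and 2.53 to 1 in the fed library. These ratios within a library do not depend on the scaling between libraries. Their intervals cover counting error only. Log2 ratios of genes of like level had a robust SD of 0.22, and the gap to Sucla2 was not tested against that spread. A processed pseudogene, Gm15163, shares 1302 bases with the Suclg2 transcript at 98.9% identity and held 6 fasted and 3 fed counts, so the Suclg2 value carries some uncertainty.

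Step 6 is catalysed by succinate dehydrogenase, which is also complex II of the respiratory chain, and none of its 4 genes is among the 9. Sdha, the flavoprotein subunit, had 783 CPM in the fasted and 803 CPM in the fed library, a log2 ratio of -0.014 (-0.073 to 0.045). The iron-sulphur subunit gene Sdhb had 0.25 (0.15 to 0.36) and the membrane anchor genes Sdhc and Sdhd had 0.26 (0.16 to 0.36) and 0.29 (0.20 to 0.38). Sdha against Sdhb gave a log2 odds ratio of -0.27 (-0.39 to -0.15) and Sdha against Sdhd -0.30 (-0.41 to -0.19).

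Steps 7 and 8 close the cycle and stayed within counting error. Fh1 (chromosome 1, 175600374 to 175625635) encodes fumarase, which hydrates fumarate. It had 1023 counts (204 CPM) in the fasted and 1352 (194 CPM) in the fed library, a log2 ratio of 0.096 (-0.023 to 0.21). Mdh2 (chromosome 5, 135778480 to 135790398) encodes the mitochondrial malate dehydrogenase, which regenerates oxaloacetate. It had 2119 counts (422 CPM) in the fasted and 2875 (412 CPM) in the fed library, a log2 ratio of 0.058 (-0.024 to 0.14). Cs and Mdh2, whose products meet at oxaloacetate, had 1.13 and 1.02 Cs counts per Mdh2 count in the fasted and the fed library, a log2 odds ratio of 0.15 (0.041 to 0.27).

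With all subunits of an enzyme summed, the ratios of the enzymes also stayed close to 1. The log2 ratio of the sums was 0.24 (0.17 to 0.31) for succinate-CoA ligase, 0.13 (0.092 to 0.17) for succinate dehydrogenase, 0.086 (0.033 to 0.14) for the NAD enzyme of step 3 and 0.065 (0.0062 to 0.12) for the oxoglutarate dehydrogenase complex. Over the 17 subunit genes described here, 15 had a positive log2 ratio and the median was 0.14. Of their intervals 9 lay above a ratio of 1, 1 lay below it and 7 held it. Over all measured genes, 47.9% had a positive log2 ratio, 16.7% an interval above a ratio of 1 and 19.2% one below it. The 8 subunit genes outside the list had 0 called, 7 positive and a median of 0.17. Of 17 pairs of cycle genes set against each other, chosen after their values were seen, 10 had an interval that left out a log2 odds ratio of 0. After the correction for exon length described below, 9 did. Of single genes with a mean CPM in the range of the 9, 26.5% had an interval above a ratio of 1 and 29.9% one below it. The pairs share genes, and no such share was computed for pairs of other genes.

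**Figure D2:**
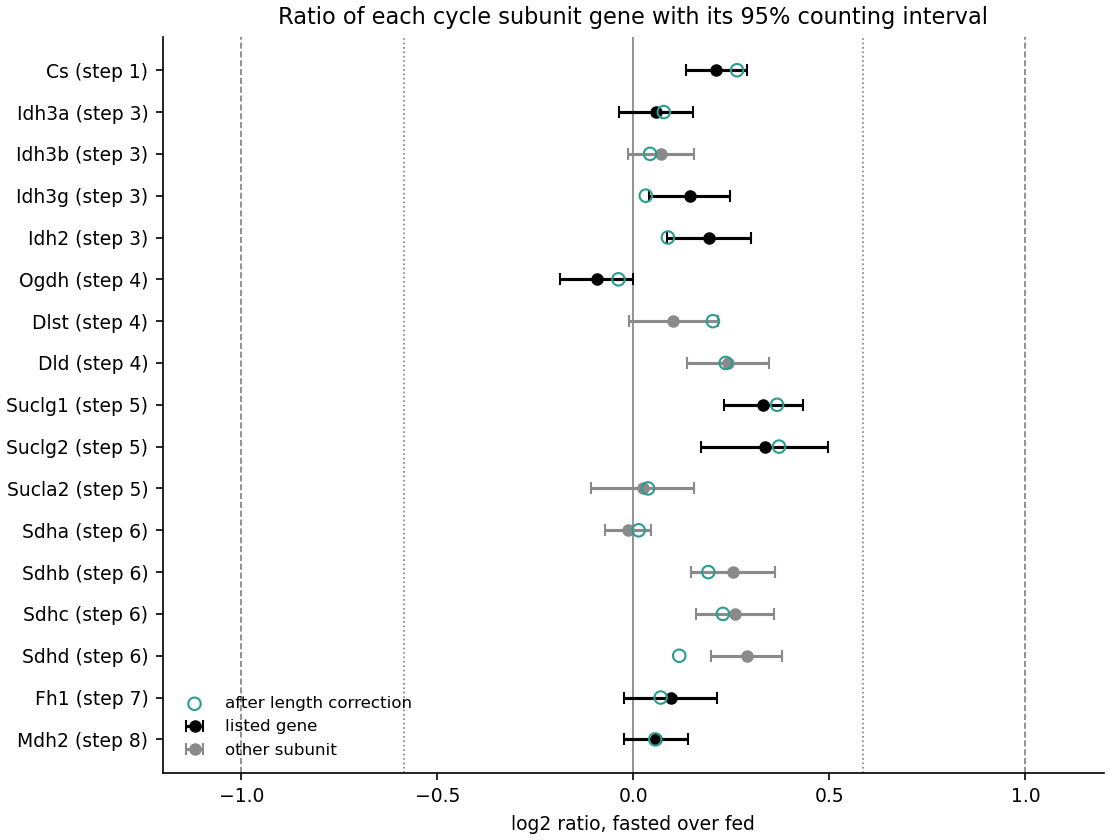
Log2 ratio of fasted over fed (horizontal axis) for 17 subunit genes of the cycle (vertical axis). Bars are 95% counting intervals, open circles are values after correction for exon length, and dotted and dashed lines mark 1.5-fold and 2-fold. All points lie between the dotted lines, with Suclg1 and Suclg2 farthest right and Ogdh farthest left.

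Of the 9 genes, all but Suclg1 and Ogdh held the same rank by level per exon length in both libraries. Per exon length, as transcripts per 1000000 (TPM), Mdh2 was the most abundant of the 9 with 382 TPM in the fasted and 392 TPM in the fed library. Idh3g followed with 325 TPM in the fasted and 314 TPM in the fed library, and Idh2 with 319 and 298 TPM, and the counting intervals of these neighbours overlapped in each library. Cs had 267 TPM in the fasted and 246 TPM in the fed library.

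Suclg1, Idh3a, Fh1 and Ogdh came next in the fasted library, from 209 down to 187 TPM, each overlapping its neighbour in counting error. In the fed library the same genes ran in the order Ogdh, Idh3a, Fh1 and Suclg1, from 213 down to 177 TPM, again with overlapping neighbours. Suclg1 and Ogdh, at the ends of this run, changed places beyond counting error: Suclg1 had 209 TPM (198 to 219) and Ogdh 187 TPM (178 to 196) in the fasted library, against 177 TPM (169 to 186) for Suclg1 and 213 TPM (205 to 222) for Ogdh in the fed library. Their log2 odds ratio, Suclg1 to Ogdh, was 0.43 (0.29 to 0.56), and 0.40 after the length correction. Suclg2 was the lowest in both, with 82.6 TPM in the fasted and 69.9 TPM in the fed library. Lengths taken from the longest protein-coding transcript, a choice made after the values were seen, put Suclg1 at rank 3 and Idh2 at rank 5 in both libraries, with Ogdh below Suclg1 in both, at rank 8 in the fasted and 7 in the fed library.

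Ratios in these libraries fell with the length of the gene, as the running median over 500 genes of like exon length showed. It was 0.17 at the 1231 bases of Sdhd and -0.10 at the 9559 bases of Dlst, with the 9 genes between 2588 and 5779 bases. After this trend was subtracted, the median log2 ratio of the 9 genes was 0.078 and 8 of 9 were still positive, against 49.8% of measured genes. Suclg1 and Suclg2 had 0.37 each and Cs 0.26, whereas Idh2 had 0.088, Idh3g 0.032 and Ogdh -0.038. The counting interval then lay above a ratio of 1 for 3 of the 9 (Cs, Suclg1 and Suclg2) in place of 5, and below it for 0 in place of 1. Sdha against Sdhd dropped to a log2 odds ratio of -0.10 (-0.21 to 0.0056), an interval that held 0.

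**Figure D3:**
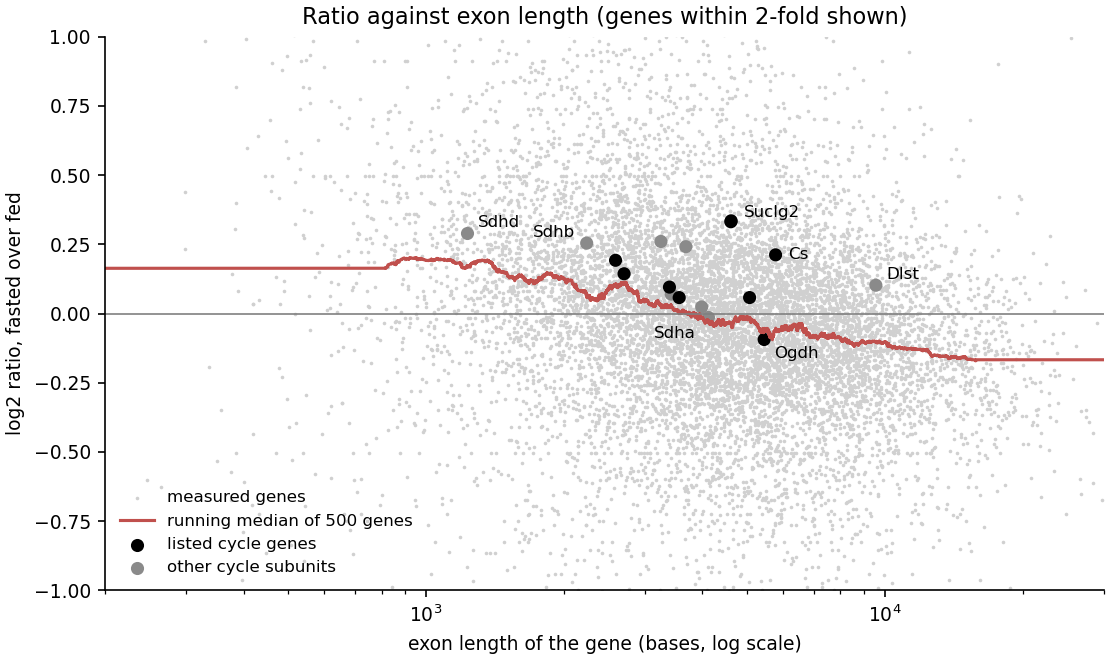
Log2 ratio of fasted over fed (vertical axis) against exon length in bases (horizontal log axis) for the measured genes within 2-fold, with the cycle genes and the running median of 500 genes. The line declines with length. Suclg2 and Cs lie above it, and Ogdh and Sdha lie close to it.

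Genes around the cycle showed a few larger ratios, mostly of genes with low counts. Of 14 genes for the entry and exit of carbon, 1 was called higher, 0 lower and 8 had a positive log2 ratio, with a median of 0.068. Over all measured genes 2.51% were called higher, 1.91% lower and 47.9% had a positive log2 ratio, so the 8 of 14 are near that share. The malic enzyme gene Me3 was the one called, with 53 counts in the fasted and 30 in the fed library, a log2 ratio of 1.32 (0.65 to 2.02). Mcee, of the propionate pathway that feeds succinyl-CoA, had 0.49 (0.22 to 0.76). At the other end Pcx, the pyruvate carboxylase that supplies oxaloacetate, had 89 counts in the fasted and 194 in the fed library, a log2 ratio of -0.63 (-1.01 to -0.26).

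Of 6 genes for cytosolic counterparts of the cycle and of its exported products, 1 was called higher, 0 lower and 5 were positive, with a median of 0.24. Over all measured genes the shares were 2.51% higher, 1.91% lower and 47.9% positive. The cytosolic malic enzyme gene Me1, called higher, had 94 counts in the fasted and 31 in the fed library, a log2 ratio of 2.10 (1.499 to 2.73). Idh1, the cytosolic NADP enzyme, had 0.38 (0.20 to 0.55), and Mdh1, the cytosolic malate dehydrogenase, had 0.19 (0.099 to 0.27). Acly, which splits exported citrate for lipid synthesis, had 879 counts in the fasted and 1488 in the fed library, a log2 ratio of -0.26 (-0.38 to -0.14).

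Of 12 cofactor and assembly genes, 1 was called higher, 0 lower and 8 were positive, with a median of 0.17. The shares over all measured genes were again 2.51% higher, 1.91% lower and 47.9% positive. Lipt1, which attaches the lipoyl cofactor that the oxoglutarate and pyruvate dehydrogenase complexes need, had 75 counts in the fasted and 49 in the fed library, a log2 ratio of 1.11 (0.57 to 1.66). Iba57, an iron-sulphur cluster factor, had 328 and 235 counts in the fasted and the fed library, a log2 ratio of 0.98 (0.73 to 1.23), just under the threshold. After correction for exon length Lipt1 and Iba57 had 0.99 each, which ended the call of Lipt1. At the low end of this list Lipt2 had 201 counts in the fasted and 342 in the fed library. Its log2 ratio was -0.27 (-0.53 to -0.013). Sdhaf4, with 52 and 92 counts in the fasted and the fed library, had -0.33 (-0.84 to 0.18). Of the 7 mitochondrial carriers of cycle metabolites, 6 were measured and 0 were called, with 5 positive and a median of 0.075, while Slc25a21 had 0 counts in both libraries.

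The pathways that deliver acetyl-CoA and pyruvate differed in their medians. Of 7 genes of the pyruvate dehydrogenase complex and its phosphatases 0 were called and 2 were positive, with a median of -0.11. Pdha1 was the highest at 0.26 (0.19 to 0.34), and the intervals of the others held a ratio of 1. Summed, the 7 genes had 882 CPM in the fasted and 810 CPM in the fed library, so the median does not speak for the complex as a whole. Dld, which the complex also uses, was not in this list. Of 13 glycolysis genes 0 were called and 12 were positive, with a median of 0.21, and Hk2 had the lowest value at -0.36 (-0.52 to -0.21). After the length correction 9 of the 13 were positive. Over all measured genes 47.9% were positive before and 49.8% after that correction. Of 12 genes of the mitochondrial beta-oxidation spiral, which splits fatty acids into acetyl-CoA, 7 were called higher and 0 lower, against 2.51% and 1.91% of all measured genes. Their median log2 ratio was 1.44, or 2.71-fold, and the range from 0.19 for Echs1 to 2.53 for Acadl met that of the 9 cycle genes only at its low end. With 1 library per group the difference between these lists was not tested.

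**Figure D4:**
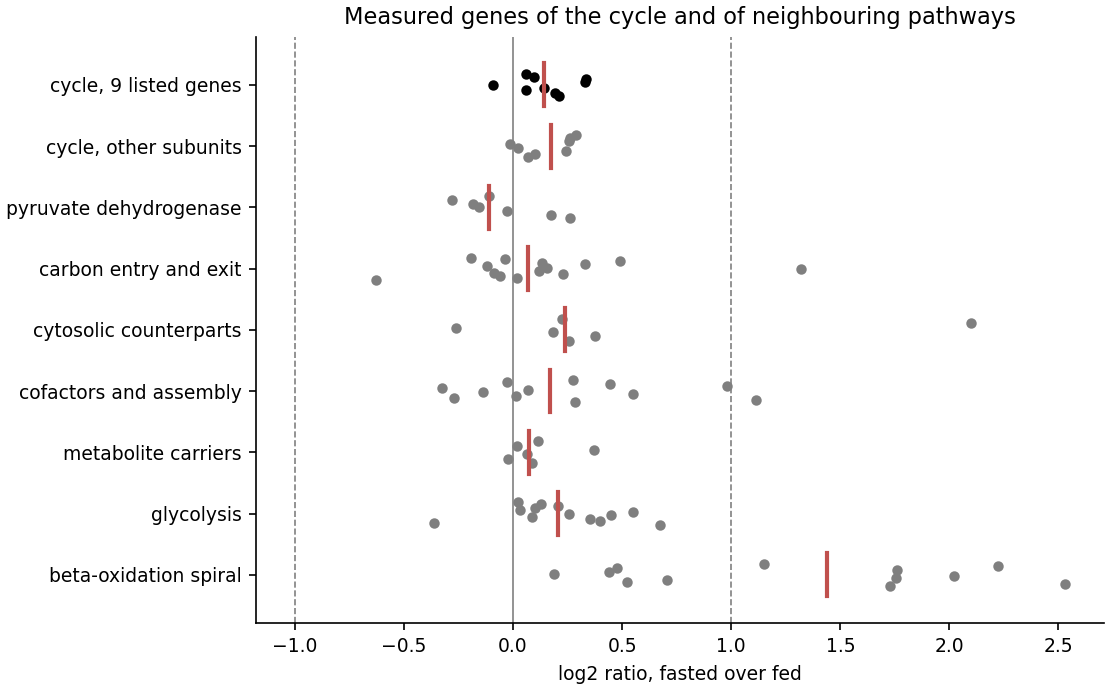
Log2 ratio of fasted over fed (horizontal axis) of the measured genes in the cycle lists and neighbouring pathways (vertical axis), with the median of each list as a red line and 2-fold as dashed lines. The cycle lists sit near 0, with medians of 0.14 and 0.17, while the beta-oxidation median lies at 1.44.

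**Figure D5:**
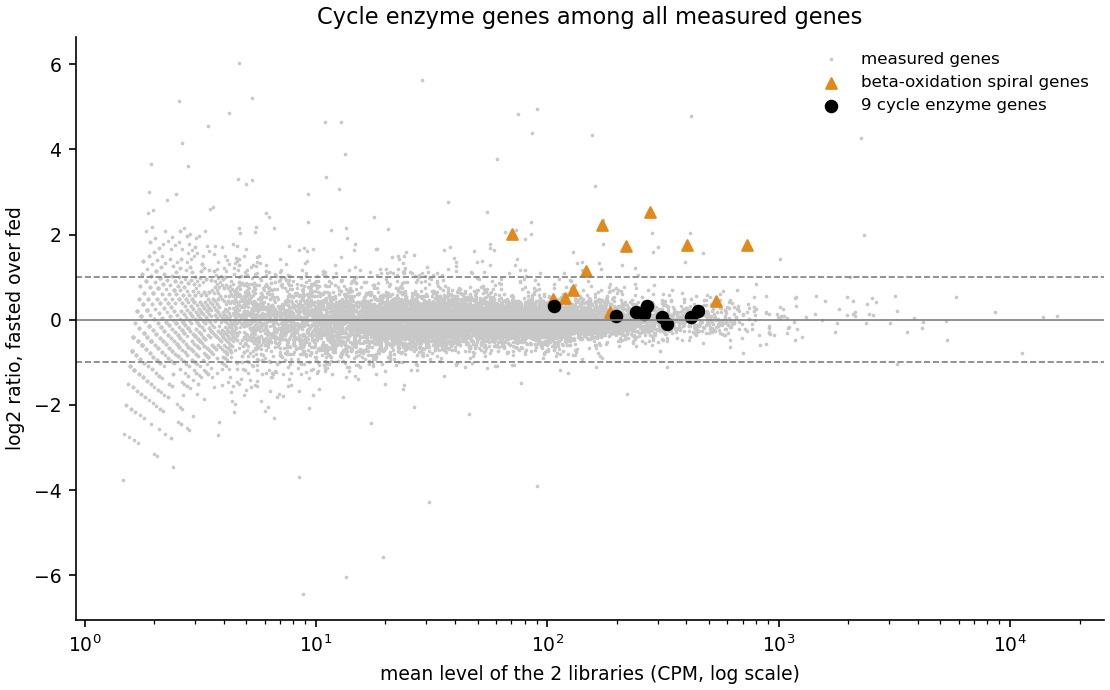
Log2 ratio of fasted over fed (vertical axis) against the mean CPM of both libraries (horizontal log axis) for measured genes with a count in each library. The 9 cycle enzyme genes lie between 107 and 448 CPM and inside the dashed 2-fold lines, and 7 of the 12 beta-oxidation genes lie above the upper line.

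Markers of other cells moved between the libraries as well. The 14 enterocyte markers summed to 3498 CPM in the fasted and 1692 CPM in the fed library, with 11 called higher, 0 lower and a median log2 ratio of 1.24. Fabp1 alone had 806 CPM in the fasted and 29.8 CPM in the fed library. Vil1 had the lowest log2 ratio of the 14, -0.014 (-0.084 to 0.056). Over all measured genes 2.51% were called higher, 1.91% lower and 47.9% had a positive log2 ratio. The 7 goblet cell markers summed to 1163 CPM in the fasted and 575 CPM in the fed library, with 3 called higher. The 12 stem cell markers summed to 14676 CPM in the fasted and 22360 CPM in the fed library, with 0 called, 1 positive and a median of -0.33. The part of these cell types in the ratios of the cycle genes was not tested.

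Of 8 Paneth cell markers 7 were measured, 1 of them called higher, with a median of -0.33 and summed levels of 963 CPM in the fasted and 1104 CPM in the fed library. Enteroendocrine and tuft cell markers summed to 24.7 and 9.36 CPM in the fasted and to 25.9 and 12.2 CPM in the fed library, with 0 called and medians of 0.19 and -0.62. The 6 immune markers held 34 counts in the fasted and 92 in the fed library, with 1 of 2 measured called lower. The 6 markers of stroma and endothelium held 7 and 13 counts, with 0 measured. At 0 in both libraries were Cd79a, Col3a1 and Pdgfra, as well as the Paneth marker Defa5 and the tuft marker Il25.

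Many genes had a pattern like that of the cycle enzymes. Within a distance of 0.5 from the median log2 ratio and the median log2 CPM of the 9 genes lay 524 of 10931 other measured protein-coding genes. The 3 nearest were Cmtm4, Prpf19 and Ctdsp2, with log2 ratios of 0.16, 0.16 and 0.14. With 2 libraries, likeness means no more than a similar level and ratio.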

How the data were processed

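Intestinal stem cell RNA was made into TruSeq libraries from 1 ug of total RNA, per the labels' protocols. The authors deposited whole-number counts of reads per Ensembl gene, not normalised. FastQC, STAR, HTSeq and DESeq and the builds GRCm38 and mm10 are named without versions or roles, per the submitters' processing notes. Neither the annotation nor the strand setting is given in the sources used here. A deposited table holds a signal that matched the count divided by 1 factor per library to within 0.0051 for 99.9956% of fasted and 100% of fed values. Multiplied back, 100% of its values were within 0.0119 of a whole read. Its factors equal the size factors used here, so calls from counts scaled by them had to be the same 302 higher and 230 lower.

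Symbols, exon lengths and coordinates came from GENCODE M21 (45143 of 45706 IDs matched). Genes with a mean of at least 1 CPM and at least 20 counts in sum were measured. Ratios used median-of-ratios size factors and Clopper-Pearson intervals, subunit balances exact conditional odds ratios, in Python 3.11.15 with SciPy 1.17.1. Intervals cover counting error only. Similar transcripts (at least 95% identity over 100 bases) were sought with BLAST 2.17.0. The interval procedure was checked on simulated counts. No test, edgeR and DESeq2 included, was possible with 1 library per group. Alternatives were upper-quartile and TMM factors (edgeR 4.0.16), scaling to total counts, the factors of the deposited table, a length correction, other filters and other thresholds.

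Named were the 9 genes, other cycle subunits, at most 2 genes at either end of each further list and those past 2-fold, and the 3 genes nearest in level and ratio. Genes past 2-fold in the beta-oxidation and marker lists are mostly given as counts, and not every gene that this rule takes is reported here. The members and lists were chosen with earlier results of these data known.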

Additional observations from a re-analysis of the deposited data

How the results depend on the processing

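No paired analysis was possible because each group has 1 library. For the same reason no library could be left out. The count of 0 called among the 9 cycle enzyme genes held under each scaling, the length correction and thresholds of 1.5-fold and 3-fold. Their median log2 ratio ran from 0.078 (length correction) to 0.17 (upper-quartile factors), and the log2 ratio of their summed counts from 0.11 (total counts) to 0.15 (upper-quartile factors). Each of the 9 genes kept its sign under every scaling and the length correction, with Ogdh between -0.11 and -0.038. A scaling adds 1 constant to every log2 ratio, here at most 0.024 in size. The smallest of the 9 log2 ratios was 0.058, so the scalings could not change a sign. After the length correction the intervals of Idh2, Idh3g and Ogdh held a ratio of 1, with Idh3g at 0.032. Over all measured genes, the 302 higher and 230 lower became 176 and 111 with a minimum mean of 5 CPM, 124 and 88 with a 3-fold threshold, and 614 and 607 with one of 1.5-fold, as stricter or looser rules must. Of all values recomputed, 277 stayed within their counting interval, within 1.5 times a count or, for 12 of them, at the same rank. Another 17 moved further and 0 turned a direction that lay outside counting error. The 277 include 44 from the factors of the deposited table, which equal the size factors used here, so these could not move. They also include 44 each from TMM, total-count and upper-quartile factors. Shifts of at most 0.024 could not take a ratio out of its counting interval, so for the ratios these labels were fixed as well. The depth limits a ratio of the 9 genes to a counting error of 0.078 to 0.16 on the log2 scale, and the spread between mice is unknown.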
